A study of Mus musculus with 3 samples.

Results

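TRα1 binding sites (TRBS) at the genes of the neurotrophins Bdnf and Ntf3, their receptors Ntrk2, Ntrk3, Ngfr and Sort1, and Fndc5 were examined in adult mouse striatum. A TRBS was counted for a gene when its summit, the base with the highest fragment coverage, lay inside the gene body or within 30 kb of the 5-prime end of the gene, hereafter the gene start. This rule selected 45 of the 23988 TRBS in the list. They lay at 6 of the 7 genes, and none was shared between 2 of the 7. The rule used positions only.

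All 3 libraries came from the striatum of male C57BL/6J mice, 8 weeks old, euthyroid and untreated, in which GABAergic neurons carried a GS-tagged TRα1. There were 2 ChIP libraries and 1 input library, which served as the control. The promoter or Cre line that restricts the tag, and whether animals were pooled, were not given in the sources used here. The processed data were 1 peak list, without values for each library, so that no replicate error could be computed and no test between libraries was made. Fold enrichment is the fragment pileup of the ChIP at the summit over the local background of the peak caller MACS2, after 1 is added to both. The depth of the libraries, the expression of the genes and the presence of the labelled cell type were not analysed here.

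Neurotrophins are secreted growth factors that control the survival, growth and synaptic function of neurons. Each binds a receptor of the Trk family of tyrosine kinases. BDNF acts through TrkB, the product of Ntrk2, and NT-3 acts mainly through TrkC, the product of Ntrk3. The precursor forms bind p75, the product of Ngfr, together with sortilin, the product of Sort1. Striatal projection neurons respond to BDNF, much of which reaches them from cortical axons. Fndc5 encodes a membrane protein whose extracellular part is released as irisin. Thyroid hormone receptors bind DNA as a heterodimer with RXR, typically at a DR4 element, in which 2 copies of the half-site AGGTCA follow each other on 1 strand, 4 bases apart.

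The sequences around 6 summits are shown first, because they hold the elements to which the results refer. Each is a window of 201 bases in GRCm38, read 5-prime to 3-prime on the strand of the gene. Capitals mark the half-sites of DR4 matches, exact AGGTCA half-sites on either strand and AP-1 motifs (TGANTCA). The first window is the summit of the only TRBS at Bdnf, chr2:109681287-109681487, plus strand. The next 3 are the TRBS of the Trk receptor genes with a DR4 match within 10 bp of the summit. These are chr13:58951301-58951501 on the plus strand for Ntrk2, and chr7:78563724-78563924 and chr7:78527622-78527822 on the minus strand for Ntrk3. The window upstream of Fndc5, chr4:129133770-129133970 on the plus strand, has the summit DR4 with the fewest mismatches. The last, chr7:78297352-78297552 on the minus strand, is the strongest TRBS of the Trk genes outside untranslated regions, and it has no capitals because it holds none of the 3 motifs.
Bdnf, only TRBS: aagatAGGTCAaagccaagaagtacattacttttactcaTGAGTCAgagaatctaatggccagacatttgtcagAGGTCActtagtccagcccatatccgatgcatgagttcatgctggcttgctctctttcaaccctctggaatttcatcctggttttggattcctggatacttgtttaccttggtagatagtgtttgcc
Ntrk2, TRBS 4 along the gene: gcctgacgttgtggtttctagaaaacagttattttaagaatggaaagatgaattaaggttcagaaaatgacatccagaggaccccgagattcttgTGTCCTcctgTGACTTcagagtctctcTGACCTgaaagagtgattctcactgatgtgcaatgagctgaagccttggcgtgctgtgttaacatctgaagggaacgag
Ntrk3, TRBS 5 along the gene: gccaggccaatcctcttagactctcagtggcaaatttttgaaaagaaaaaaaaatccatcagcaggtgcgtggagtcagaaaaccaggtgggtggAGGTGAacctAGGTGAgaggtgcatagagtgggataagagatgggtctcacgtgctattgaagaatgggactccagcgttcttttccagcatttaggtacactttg
Ntrk3, TRBS 6 along the gene: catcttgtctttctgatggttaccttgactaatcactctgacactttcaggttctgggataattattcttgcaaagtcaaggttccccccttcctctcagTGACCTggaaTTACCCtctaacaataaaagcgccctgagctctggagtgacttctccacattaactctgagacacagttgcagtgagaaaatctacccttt
Fndc5, TRBS 5 along the region: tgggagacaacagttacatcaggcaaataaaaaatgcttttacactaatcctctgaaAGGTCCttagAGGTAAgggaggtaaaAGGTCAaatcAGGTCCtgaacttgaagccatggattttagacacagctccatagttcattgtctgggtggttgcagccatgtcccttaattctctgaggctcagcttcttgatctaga
Ntrk3, TRBS 12 along the gene: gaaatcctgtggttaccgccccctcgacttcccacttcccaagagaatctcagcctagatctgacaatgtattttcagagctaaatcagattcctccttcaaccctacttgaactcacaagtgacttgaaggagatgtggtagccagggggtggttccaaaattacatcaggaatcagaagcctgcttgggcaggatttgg

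The number of TRBS differed widely among the 7 genes. Ntrk3 had 13 TRBS, Fndc5 12, Ntrk2 11 and Sort1 7, whereas Bdnf and Ngfr had 1 each and Ntf3 had 0. For comparison, 57.7% of the 21938 protein-coding genes had at least 1 TRBS by the same rule, and 2.64% had at least 7. The members were chosen with earlier results of these data known, the number at Fndc5 among them, so that the 4 genes with at least 7 are a description.

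A longer gene offers a longer region, and the counts were therefore set beside genes with regions of similar length. Among the 14277 genes with the shortest region, of 60 kb, 51.4% had at least 1 TRBS, and 5 genes, Fndc5 included, had at least 12. Among the 4852 genes with regions over 60 and up to 120 kb, 62.7% had at least 1 TRBS, and 1.73% had at least the 7 found at Sort1. Bdnf with its single TRBS and Ntf3 without any belong to this class too. Of the 1878 genes with regions over 120 and up to 240 kb, a class without any of the 7, 76.5% had at least 1 TRBS. Among the 931 genes with regions over 240 kb, 88.9% had at least 1 TRBS, 11.2% had at least the 11 of Ntrk2 and 7.95% had at least the 13 of Ntrk3. The counts at the Trk genes were thus not rare in this class, whose median was 3 TRBS. The class has no upper limit of length, and the regions of Ntrk2 and Ntrk3 were 357 and 592 kb. Per length the order of the genes was different. Fndc5 had 20.0 TRBS per 100 kb, Sort1 6.52, Ntrk2 3.08, Ntrk3 2.20, Ngfr 1.67 and Bdnf 1.21.

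**Figure D1:**
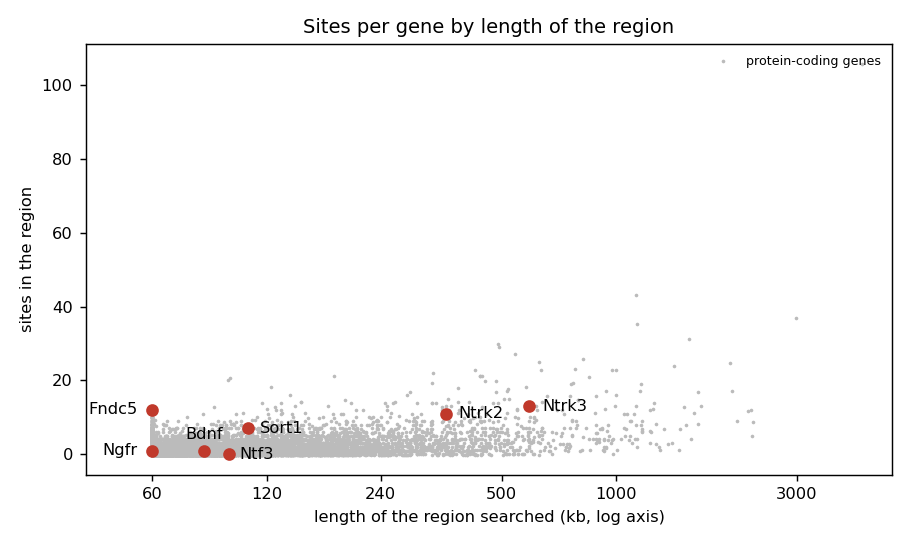
Number of TRBS in the region of each gene against the length of the region in kb on a log axis, with 1 grey point for each of the 21938 protein-coding genes and the 7 genes in red. Fndc5, with 12 TRBS in 60 kb, lies at the upper edge of the genes with the shortest region, and Ntrk2 and Ntrk3 lie above the median of 3 TRBS for regions over 240 kb.

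Among the ligands, Bdnf (chr2:109674700-109727007, plus strand) had a single weak TRBS. It lay at chr2:109681263-109681531, with its summit 6687 bp downstream of the gene start, and its fold enrichment was 5.58 at a pileup of 14. Its score of 66 was close to the lowest score in the list, 60, and 80.8% of all TRBS had a higher fold enrichment. Bdnf is transcribed from several alternative first exons, which fall into an upstream group and a downstream group in the annotation. The summit was intronic and lay between these groups, 4355 bp downstream of the start of the transcript Bdnf-206 and upstream of the coding transcripts that begin from 17736 bp from the gene start. The window printed above holds 2 exact AGGTCA copies on the same strand, with 63 bases between them, and 1 AP-1 motif, but no DR4. The locus was otherwise bare, since the nearest TRBS outside the region lay 668497 bp upstream and 185615 bp downstream of the gene start.

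Ntf3 (chr6:126101412-126166910, minus strand), the gene of NT-3, had no TRBS in its 95.5 kb. The nearest, with a fold enrichment of 7.13, lay 9098 bp beyond its 3-prime end. DR4 letters were nevertheless present at both ligand genes. Allowing up to 2 mismatches across the half-sites, 12 matches were found in the region of Ntf3 and 6 in that of Bdnf, and 0 of them lay in a TRBS.

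The receptor gene Ntrk2 (chr13:58806569-59133970, plus strand) had its strongest TRBS inside the 3-prime untranslated region of a short transcript. This TRBS, at chr13:58935834-58936636, had a fold enrichment of 55.8 at a pileup of 149 and ranked 145 among all TRBS. Its summit lay in the last exon of Ntrk2-202, 705 bp before the end of that transcript. Ntrk2-202 has a coding sequence of 476 residues, against 821 for the main transcript Ntrk2-201, and corresponds to truncated TrkB, which lacks the kinase domain. In Ntrk2-201 the same position lies in intron 12. A second, weak TRBS with a fold enrichment of 5.96 lay in the same exon, 1349 bp before the strongest. Neither contained a DR4 with at most 2 mismatches.

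The other 9 TRBS of Ntrk2 were lower. The TRBS at the gene start, at chr13:58806363-58807031, had its summit 302 bp downstream of it, and its fold enrichment was 9.42 at a pileup of 28. It was rich in CpG, with 17 in the 201 bases around the summit and a GC content of 63.2%. No TRBS followed for the next 128102 bp. The remaining 8 lay in introns 12, 13, 14 and 16 of Ntrk2-201, downstream of the end of the truncated transcript. The strongest of these lay in intron 16 at 267698 bp, with a fold enrichment of 18.2. Intron 13 held 4 TRBS, with fold enrichments of 15.2, 9.73, 5.24 and 5.33 in their order along the gene, and intron 14 held 1 with 14.8. That site had a pileup of 68 over a local background of 3.65 fragments, the second highest background of the 45 TRBS, where the floor is 1.69.

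Ntrk3 (chr7:78175959-78738012, minus strand) had 13 TRBS, all in introns. The strongest, at chr7:78297044-78297757, reached a fold enrichment of 33.5 at a pileup of 89 and ranked 675 among all TRBS. It lay in intron 12 of the main transcript Ntrk3-206, which encodes 864 residues, and 3238 bp beyond the end of the short coding transcript Ntrk3-202, which encodes 612. Each of the Trk genes has further short coding transcripts that end elsewhere. At Ntrk2, Ntrk2-204, also of 476 residues, ends 3202 bp before the strongest TRBS, and Ntrk2-205, Ntrk2-208 and Ntrk2-209 end 47843 to 57573 bp before it. At Ntrk3, Ntrk3-212 and Ntrk3-214, of 82 and 86 residues, end 280084 and 220032 bp before it. The printed window of this TRBS contains neither DR4 nor an exact half-site.

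The annotated start of Ntrk3 belongs to noncoding transcripts, and no TRBS lay within 1 kb of it. A pair of neighbouring TRBS lay instead beside the start of the full-length coding transcripts, in sequence that an antisense gene also covers. Their summits were 1263 and 511 bp upstream of the start of Ntrk3-201, with fold enrichments of 11.2 and 12.6. The nearer of the pair was CpG-rich, with 14 CpG and a GC content of 62.7% around its summit. In intron 1 of Ntrk3-206, 2 TRBS with fold enrichments of 19.3 and 19.8 each had a DR4 at the summit, and the first of these was also the longest of the 45, at 1769 bp. The remaining 8 TRBS had fold enrichments between 5.77 and 10.9, and 1 of them, in intron 16 with 9.62, had a DR4 at the summit.

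**Figure D2:**
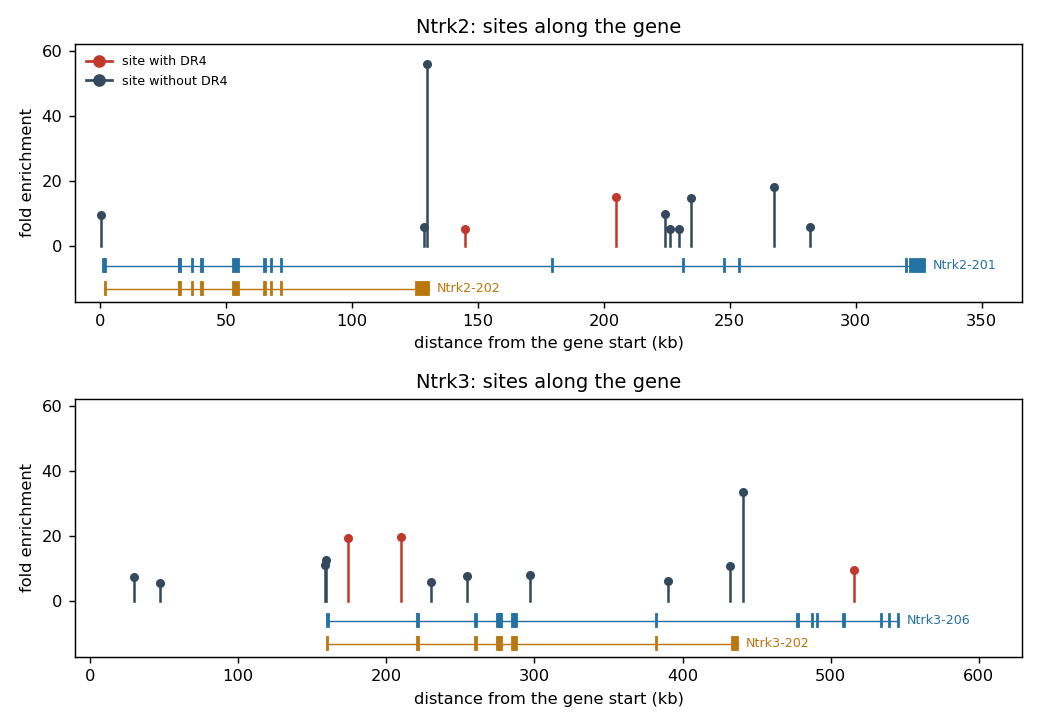
Fold enrichment of each TRBS along Ntrk2 and Ntrk3 against the distance from the gene start in kb, with the exons of the main transcript in blue and those of the short coding transcript in orange. Points are red for TRBS with DR4 and dark for those without. The highest point of Ntrk2, 55.8, stands over the last exon of Ntrk2-202, and that of Ntrk3, 33.5, stands just beyond the last exon of Ntrk3-202.

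Ngfr (chr11:95568818-95587735, minus strand), the gene of p75, had a single TRBS, at its start. The summit at chr11:95587362-95588076 lay 179 bp downstream of the gene start in coding exon 1, where the fold enrichment was 10.04 and the pileup 26. It was CpG-rich, with 16 CpG and a GC content of 66.2%, the same GC content as the median of all TRBS within 1 kb of a gene start. A DR4 match with 2 mismatches lay 99 bp from the summit.

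Sort1 (chr3:108284082-108361511, plus strand), the gene of sortilin, had 7 TRBS, of which 6 lay within 30 kb of its start. The strongest, at chr3:108283638-108284651, covered the gene start with its summit 65 bp upstream, and its fold enrichment was 12.5 at a pileup of 39. It had the highest GC content of the 45 TRBS, 73.1%, with 24 CpG. The second strongest lay in intron 1, 1085 bp downstream of the gene start, with a fold enrichment of 10.9. Intron 3 held 2 TRBS, with 10.8 and 8.18, and the former had a DR4 35 bp from its summit. The remaining 3 had fold enrichments of 5.58, 6.29 and 5.95. The last of them lay in the 3-prime untranslated part of exon 21, and the nearest gene start was that of Mybphl, 7563 bp away. The first, 5166 bp upstream of Sort1, lay inside the neighbouring gene Psma5, which encodes a proteasome subunit. Psma5 shared 3 of the 7 TRBS by the same rule, the strongest and the second strongest included, and had no others. An antisense gene also covers the summit of the strongest.

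Fndc5 (chr4:129136999-129144593, plus strand) is the shortest of the 7 genes, at 7.59 kb, and had 12 TRBS from 23687 bp upstream to 18548 bp downstream of its start. Only 3 of them lay inside the gene, all in introns, while 6 lay upstream and 3 downstream. The TRBS nearest to the start were of modest height. The one 733 bp upstream had a fold enrichment of 6.29, and the one 902 bp downstream, in intron 1, had 10.3. Within intron 4 there were 2, with 6.32 and 6.54. The latter had a pileup of 31, nearly that of the intron 1 site at 32, but stood on the highest local background of the 45 TRBS, 3.89 fragments.

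The strongest TRBS counted for Fndc5 lay in its neighbour. The TRBS at chr4:129119813-129120705, with the highest fold enrichment of the 12 (20.1, pileup 53), had its summit 16963 bp upstream of Fndc5 but 2000 bp from the start of Hpca, which encodes the neuronal calcium sensor hippocalcin. In all, 4 of the 12 TRBS lay in the body of Hpca, 3 of them nearest to its start and 1 nearest to that of Tmem54. They had fold enrichments of 11.9, 10.3, 20.1 and 10.04, and the other 8, nearest to Fndc5, had between 6.29 and 10.5. Hpca shared 11 of the 12 TRBS by the same rule and had no others. The 2 most distant downstream TRBS lay inside S100pbp. Which of these genes a TRBS serves cannot be told apart from positions.

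**Figure D3:**
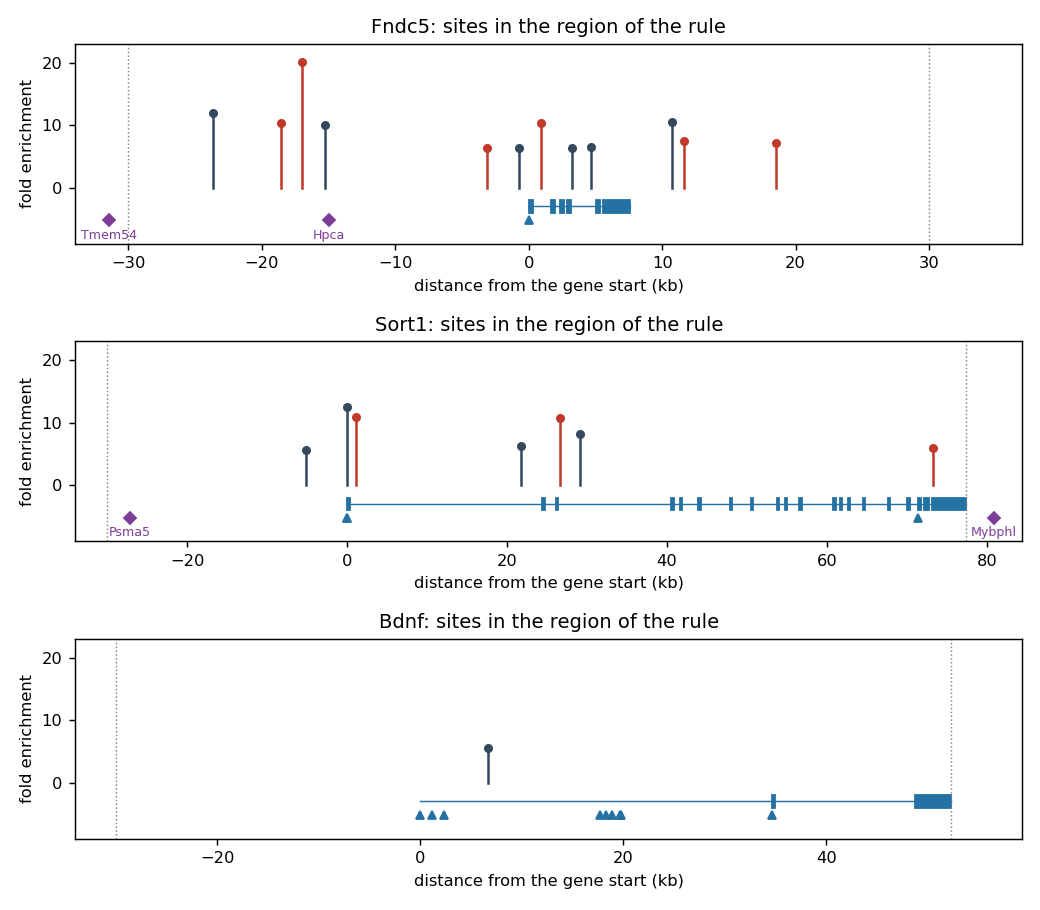
Fold enrichment of each TRBS (red with DR4, dark without) against the distance from the gene start in kb at Fndc5, Sort1 and Bdnf, with exons of the main transcript as blue boxes, transcript starts as triangles, starts of neighbouring genes as diamonds and the limits of the region as dotted lines. The 4 leftmost TRBS at Fndc5, which include its highest value of 20.1, lie left of its start beside Hpca, and the single TRBS of Bdnf lies between its groups of transcript starts.

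Over the 45 TRBS, the fold enrichment had a median of 9.42, against 7.40 for all TRBS. The 25th and 75th percentiles were 6.29 and 11.2, against 5.95 and 11.2, so that the 75th percentile was the same in both. For the 40 TRBS whose nearest gene start was that of the member, the median was lower, 8.17. The median was 9.42 for Ntrk2, 9.62 for Ntrk3, 8.18 for Sort1 and 8.76 for Fndc5. The weak members lay close to the limit of the list, with Bdnf and the upstream TRBS of Sort1 at a score of 66 and 1 TRBS of Ntrk2 at 67. A score of at least 200 was reached by 19 of the 45, or 42.2%, against 31.4% of all TRBS. These 19 were spread over Ntrk3 with 7, Fndc5 with 5, Ntrk2 with 4 and Sort1 with 3, and Bdnf and Ngfr had none.

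**Figure D4:**
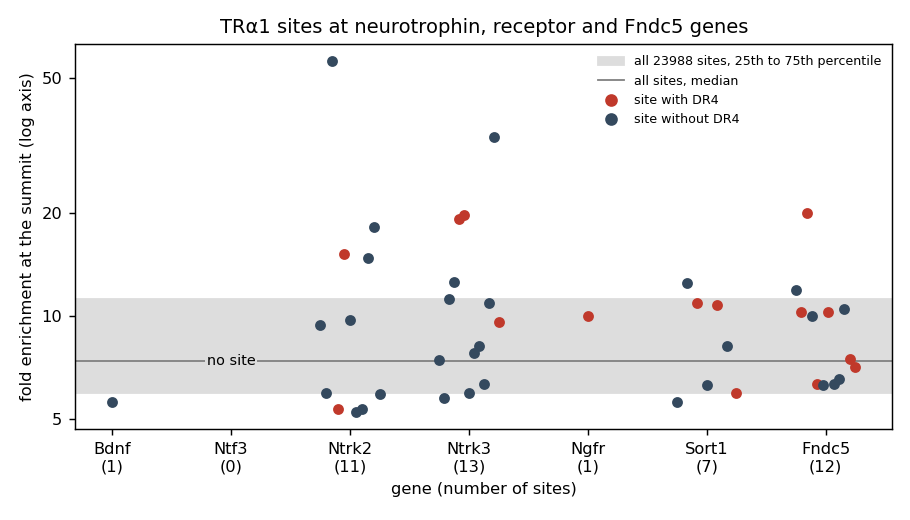
Fold enrichment of each of the 45 TRBS on a log axis by gene, in order of position from left to right, with the 25th to 75th percentile of all TRBS in grey and their median, 7.40, as a line. TRBS with a DR4 are red and the others dark. Single TRBS of Ntrk2 (55.8) and Ntrk3 (33.5) stand far above the rest, and the single TRBS of Bdnf lies below the grey band.

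Introns held 30 of the 45 summits, 8 lay upstream of the gene, 3 downstream, 3 in untranslated exons and 1 in a coding exon. The rule took every summit inside a gene body, and 24 of the 45 came from the long genes Ntrk2 and Ntrk3, so that these counts follow in large part from the rule. Only 6 summits, or 13.3% (95% Wilson interval 6.26 to 26.2), lay within 1 kb of the start of a protein-coding gene, against 20.4% of all TRBS. Repeats covered at least 50% of the bases around the summit in 0 of the 45 (interval 0 to 7.87), against 4.14% of all TRBS.

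DR4 elements were searched in the whole TRBS on both strands with at most 2 mismatches. They were present in 15 of the 45 TRBS, or 33.3% (95% Wilson interval 21.4 to 47.9), against 17.3% of all TRBS and 8.89% when the same 45 intervals were shifted 5 kb to the right. The interval covers counting error only, and TRBS of the same gene are not independent. Shifting all TRBS in the same way gave 5.90%. The 45 TRBS also offered more sequence to search, with a median length of 481 bp against 422 bp for all TRBS. By gene, DR4 was present in 6 of 12 TRBS at Fndc5, 3 of 7 at Sort1, 3 of 13 at Ntrk3, 2 of 11 at Ntrk2, 1 of 1 at Ngfr and 0 of 1 at Bdnf. The Trk genes together thus had DR4 in 20.8% of 24 TRBS, close to the 17.3% of all TRBS, and the higher share came from TRBS counted for Fndc5 and Sort1. Those with DR4 at Fndc5 included the TRBS 18542 and 16963 bp upstream, in the body of Hpca. They also included the TRBS 11608 and 18548 bp downstream, inside S100pbp. At Sort1, the TRBS with DR4 in exon 21 was nearest to the start of Mybphl. The difference between 33.3% and 17.3% depended on the mismatch limit. With at most 1 mismatch the share was 4.44% against 3.86%, and with at most 3 it was 55.6% against 52.9%. Among TRBS with a score of at least 200, with at most 2 mismatches, it was 47.4% of 19 (27.3 to 68.3) against 21.7%.

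**Figure D5:**
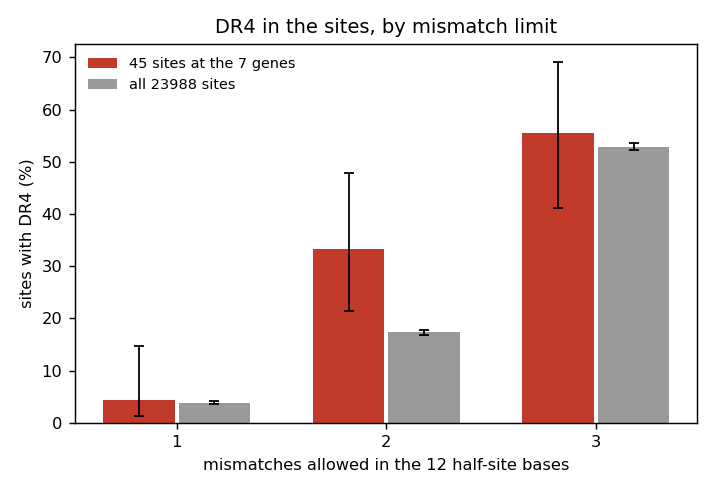
Share of TRBS with a DR4 in percent for the 45 TRBS of the 7 genes in red and all 23988 TRBS in grey, by the number of mismatches allowed across the 12 bases of the half-sites, with 95% Wilson intervals as error bars. The shares lie apart with at most 2 mismatches (33.3% against 17.3%) and nearly coincide with at most 1 (4.44% against 3.86%) and at most 3 (55.6% against 52.9%).

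The matches that lay wholly within 100 bp of a summit are given here on the strand of the repeat, with the half-sites in capitals and the spacer in lower case, because they show how far each one departs from AGGTCA. There were 9 TRBS with such a match, or 20.0%, against 13.1% of all TRBS, and that upstream of Fndc5 had 2 matches. Among them, only 1 of the matches at Fndc5 had a single mismatch, and the other matches each had 2.
Ntrk2, chr13:58951396-58951411, minus strand: AAGTCAcaggAGGACA
Ntrk3, chr7:78563814-78563829, minus strand: AGGTGAacctAGGTGA
Ntrk3, chr7:78527707-78527722, plus strand: GGGTAAttccAGGTCA
Ntrk3, chr7:78222374-78222389, minus strand: AGGTCGcctgAGGTCG
Sort1, chr3:108310669-108310684, plus strand: AGTTCAcactAGGTGA
Sort1, chr3:108357414-108357429, minus strand: AGGTCAgtcgGGGTCC
Fndc5, chr4:129118455-129118470, plus strand: CGGCCAcgcgAGGTCA
Fndc5, chr4:129133827-129133842, plus strand: AGGTCCttagAGGTAA
Fndc5, chr4:129133853-129133868, plus strand: AGGTCAaatcAGGTCC
Fndc5, chr4:129155610-129155625, minus strand: AGGTATtatcAGGTCA

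The TRBS with the best match was not a strong one. The TRBS 3129 bp upstream of Fndc5, which carried both of the matches listed at chr4:129133827-129133868, reached a fold enrichment of only 6.32, its pileup being 16. A further match with 1 mismatch lay in a TRBS 11608 bp downstream of the Fndc5 start, 233 bp from the summit, where the fold enrichment was 7.47. Of the 4 TRBS with the highest fold enrichment among the 45, those of Ntrk2 and Ntrk3 with 55.8 and 33.5 had no DR4, whereas that beside Hpca with 20.1 and that of Ntrk3 with 19.8 had one.

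The DR4 letters in the whole regions of the 7 genes were also counted. Of 163 matches, 16 touched a TRBS, or 9.82% (95% Wilson interval 6.13 to 15.3), against 2.41% of the 166204 matches in the regions of all protein-coding genes. Matches were distributed unevenly. At Fndc5, 7 of 10 matches lay in a TRBS, at Sort1 3 of 21, at Ngfr 1 of 6, at Ntrk3 3 of 71 and at Ntrk2 2 of 37. A match can touch a TRBS only where one lies. Fndc5, chosen with its number of TRBS known, had 20.0 TRBS per 100 kb. The higher share thus follows in part from the choice of members. The interval covers counting error only, and matches of the same gene are not independent.

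Other arrangements of the half-site and motifs of other factors were examined within 100 bp of the summit. Exact AGGTCA half-sites, single or as part of a repeat, occurred at 14 of the 45 summits, or 31.1% (19.5 to 45.7), against 17.8% of all TRBS. DR1, with 1 base between the copies, accompanied 6 summits (13.3%, interval 6.26 to 26.2), compared with 2.58% of all TRBS. It was spread over Bdnf, Ntrk2, Ntrk3, Sort1 and Fndc5. DR0, DR3 and DR5 were each found at 4 summits, or 8.89% (3.51 to 20.7), against 3.19, 2.76 and 3.23% of all TRBS. DR8 was found at 3 summits, or 6.67% against 2.71%, and DR6 at 2, or 4.44% against 2.23%. DR2 and DR7 occurred at 0 summits, against 2.20 and 2.16%, and ER6 and IR0 at 1 each, or 2.22%, against 1.33 and 1.24%. The AP-1 motif TGANTCA, which binds Fos and Jun proteins, occurred at 1 summit, that of Bdnf, or 2.22% (0.393 to 11.6), against 11.5% of all TRBS. The CRE core TGACG, the E-box CAGCTG and the GC-box GGGCGG occurred at 11.1, 11.1 and 13.3% of the 45, against 11.7, 12.8 and 18.2% of all TRBS. Motifs that overlap one another were each counted, and a match is a description of the sequence only.

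TRBS were also counted at 72 further genes of neurotrophin signalling and of the Fndc5 family. At least 1 TRBS was found at 52 of them, or 72.2%, against 57.7% of all protein-coding genes. Set beside all genes of the same length class, the share was 69.0% of 29 genes against 51.4% for regions of 60 kb and 72.7% of 22 against 62.7% for those up to 120 kb. It was lower, 66.7% of 12 against 76.5%, for regions up to 240 kb, and 88.9% of 9 against 88.9% for longer ones. The neurotrophin gene Ntf5 had 1, which lay 575 bp from the start of Snrnp70. Among receptors and co-receptors, Rtn4r had 0 TRBS. The sortilin relative Sorcs2, a co-receptor of p75 for precursor forms, had 14, Lingo1 had 7, Sorl1 6, Sorcs1 and Sorcs3 5 each and Nradd 3.

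Among the signalling genes, 15 of 17 Trk adaptors (88.2%) and 3 of 7 partners of p75 (42.9%) had a TRBS, in groups whose regions differ in length. The share over all protein-coding genes was 57.7%. It was 51.4% for regions of 60 kb, the length for most partners of p75. The downstream kinases and Creb1 had a TRBS at 16 of 22 genes (72.7%). The genes of precursor processing and secretion had one at 6 of 9 (66.7%). The list of Fndc5 relatives, its regulators and the irisin receptor had one at 5 of 7 (71.4%). The highest fold enrichments of the 72 genes were 61.7 at Sorcs2, 52.6 at Pcsk1, 38.6 at Shc2, 30.7 at Mmp9 and 27.9 at Lingo1. The TRBS of Pcsk1, which encodes a convertase of prohormones, was its only one and lay 23418 bp downstream of the gene start. That of Shc2, which encodes an adaptor, lay 692 bp downstream of the gene start. That of Sorcs2 lay 139579 bp into the gene and was nearest to the start of Psapl1, and only 5 of the 14 TRBS of Sorcs2 were nearest to its own start.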

How the data were processed

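Chromatin of adult striatum, crosslinked with disuccinimidyl glutarate and formaldehyde, was immunoprecipitated for GS-tagged TRα1. The authors aligned reads by Bowtie (GRCm38) and called peaks by MACS2, then removed those with a score below 60. The submitters' processing notes name Bowtie2 2.3.2.2 and MACS2 2.1.1.20160309.0. The deposited list holds the pileup, a coverage signal of ChIP fragments, the fold enrichment as a ratio to the local background, the −log10 of p and of q, and a score that equals 10 times the −log10 of q, rounded down. Whether replicates were pooled and how duplicates were treated was not given in the sources used here. The list was written without values per library, so the depth per sample and its precision are unknown.

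Genes, transcripts and exons were those of GENCODE vM21, with 21938 protein-coding genes outside the mitochondrial genome. Positions and sequences are from GRCm38.p6. The main transcript of a gene was its APPRIS principal transcript or, without one, that with the longest coding sequence. The members and the lists of further genes were chosen with earlier results of these data known, the lists from general knowledge. Named genes were the 7 members, genes whose start was nearer to a member TRBS, other neurotrophins and receptors of the lists, and the 5 listed genes with the highest fold enrichment. Genes in whose body a TRBS lay and the nearest genes of listed TRBS were named after their values were seen, as were the windows printed. The local background was recovered from the pileup and the fold enrichment by inverting this ratio, with the 1 that MACS2 adds to both terms. Some listed genes are not reported here. No hypothesis test was run. Intervals are 95% Wilson intervals. Alternatives were other scores, distances, peak positions, transcript starts and mismatch limits. The scripts ran in Python 3.11.15 with matplotlib 3.10.9, scipy 1.17.1, pandas 2.3.3 and numpy 2.4.6. The motif search and the assignment to regions were tested on simulated data.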

Additional observations from a re-analysis of the deposited data

How the results depend on the processing

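With a score of at least 200 instead of 60, the 45 TRBS became 19, the share of protein-coding genes with a TRBS fell from 57.7 to 30.6%, and the further genes with a TRBS fell from 52 to 30 of 72. Limiting the region to 30 kb around the gene start left 22 TRBS, with 1 each at Ntrk2 and Ntrk3, and gave 53.3% of protein-coding genes. This follows from the construction, since most TRBS of the Trk genes lie deep in the gene. With 10 kb in place of 30 kb, Fndc5 kept 5 TRBS, and counting only TRBS whose nearest gene start is that of the member left it 8. Ntf3 had 0 TRBS under each of the 8 alternatives, and Bdnf and Ngfr had 0 with a score of at least 200. TRBS with DR4 numbered 2 of 45 with at most 1 mismatch, 25 with at most 3, 9 within 100 bp of the summit and 9 of 19 with a score of at least 200, the latter being 47.4% against 21.7% of all TRBS at that score. In all, 11 of the 20 alternatives for these results and 47 of the 56 for single genes left the value within 1.5 times, or a share within its interval. Only the share of protein-coding genes was judged by its interval. DR4 was judged by its number of TRBS and not by its share, also where the totals of 45 and 19 differ. Leaving out 1 library could not be done, because the list holds no values per library. No paired analysis was possible because the list carries no replicate numbers.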
